A study of Rattus norvegicus with 6 samples.

Results

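Epcam, Bcam, Prom1, Cd44, Thy1, Eng and Nt5e encode cell surface proteins whose antibodies are used to tell gland epithelium from marrow stroma. They were taken by gene symbol, and all 7 were among the 13728 genes of the expression table used here. Their transcripts were read in rat endometrial epithelial organoids (rEEOs, 3 libraries) and rat bone marrow mesenchymal stem cells (rBMSCs, 3 libraries). The question was which of the 7 were present in one cell type and absent from the other, and which differed only in level.

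The rEEOs were grown from uterine gland fragments of female SD rats aged 5 weeks, embedded in Matrigel and kept for 3 to 5 passages in a medium that held epithelial growth factors, Wnt activators, the BMP antagonist noggin and an inhibitor of TGF-beta receptor kinases. The rBMSCs were a purchased stock that carries a red fluorescent protein label, grown on plastic in a medium with fetal bovine serum. No gene was deleted and no drug treatment distinguished libraries within a cell type. Tissue, culture medium, matrix and source of the animals therefore changed together and cannot be told apart, and the sex of the rats behind the rBMSCs was not given in the sources used here. The labels number the libraries 1 to 3 in each cell type without saying whether they came from separate animals or cultures, so the p-values measure the spread between these libraries, which may be technical.

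EpCAM (Epcam) is an adhesion protein of simple epithelia that sits along the lateral membrane and associates with claudin-7. Basal cell adhesion molecule (Bcam, the Lutheran glycoprotein) is a receptor for laminin chain alpha-5 on the basal side of epithelia. Prominin-1 (Prom1, CD133) is a cholesterol-binding protein of apical microvilli and cilia that is widely used to mark stem and progenitor cells. CD44 is the main receptor for hyaluronan and is made by many cell types, with epithelia including more of its variable exons. Thy-1 (CD90), endoglin (Eng, CD105) and ecto-5′-nucleotidase (Nt5e, CD73) are the antigens by which cultured mesenchymal stromal cells are commonly defined. Thy-1 is held in the membrane by a glycosylphosphatidylinositol (GPI) anchor and binds integrins on other cells, endoglin is an accessory receptor for TGF-beta and BMP ligands, and CD73, also GPI-anchored, turns extracellular AMP into adenosine.

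The start regions of the 3 genes that were read in rEEOs and at no more than 1 count in any rBMSCs library are shown because these genes moved together and because E-boxes (CACCTG, searched on both strands) are known binding sites of Zeb1, Zeb2 and Snail repressors of epithelial genes. The sequences are from RefSeq on build GRCr8 and run from 250 bases before to 50 bases after the annotated start, with E-boxes in capitals. Epcam lies at chr6:12649629-12649928, minus strand, Bcam at chr1:88557309-88557608, minus strand, and the first of the 2 Prom1 entries at chr14:71202395-71202694, plus strand.
Epcam: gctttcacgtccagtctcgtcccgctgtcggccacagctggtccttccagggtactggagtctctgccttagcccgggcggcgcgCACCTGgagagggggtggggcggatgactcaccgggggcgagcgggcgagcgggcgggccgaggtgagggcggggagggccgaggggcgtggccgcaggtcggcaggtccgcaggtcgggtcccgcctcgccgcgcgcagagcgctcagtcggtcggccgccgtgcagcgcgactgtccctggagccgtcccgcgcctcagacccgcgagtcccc
Bcam: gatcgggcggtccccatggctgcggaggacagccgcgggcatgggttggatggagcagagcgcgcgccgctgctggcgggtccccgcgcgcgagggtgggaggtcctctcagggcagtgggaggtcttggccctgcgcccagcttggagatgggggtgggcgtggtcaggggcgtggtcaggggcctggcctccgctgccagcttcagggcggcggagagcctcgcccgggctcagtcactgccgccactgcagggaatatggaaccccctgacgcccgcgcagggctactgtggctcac
Prom1: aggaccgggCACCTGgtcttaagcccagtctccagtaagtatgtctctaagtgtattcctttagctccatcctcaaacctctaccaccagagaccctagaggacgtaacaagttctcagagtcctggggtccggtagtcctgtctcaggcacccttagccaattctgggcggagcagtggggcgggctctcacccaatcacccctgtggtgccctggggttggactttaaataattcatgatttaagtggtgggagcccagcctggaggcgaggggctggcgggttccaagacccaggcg
The Epcam region had 1 E-box starting 165 bases before the start, and the first Prom1 region had 1 starting 241 bases before it. The Bcam region, the second Prom1 entry and the regions of Cd44, Eng and Nt5e had no CACCTG on either strand. Of all 33469 start regions of the same length, 18.8% held at least 1, so a match in these regions is a description of their letters and not of a bound site. In the same libraries Zeb1 had 2029, 1817 and 1842 counts in rBMSCs and 4, 1 and 1 in rEEOs, while Zeb2 had 2181, 1784 and 2010 compared to 2, 2 and 2. Zeb1 and Zeb2 were named after their values were seen, and Snail is not reported here. The part of these repressors in the levels of the 3 genes was not tested. The Epcam region was also the richest in G and C among the entries of these genes, with 75.7% against a median of 51.7% over all start regions.

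Library totals were 10457958 to 15421501 expected counts, the estimated number of reads that RSEM assigns to a gene. The 10 most abundant genes took 21.0% to 21.7% of the counts in rBMSCs and 6.72% to 9.70% in rEEOs. Replicates of rBMSCs lay closer together than those of rEEOs: the SD of log2(TPM + 1) of the median gene was 0.09 in rBMSCs compared to 0.36 in rEEOs. Leaving out replicate 1 of rEEOs, which stood apart, lowered the latter to 0.15. Epithelial markers, with Epcam itself among them, were called higher in rEEOs for 13 of 13 tested genes, as were 16.3% of all tested genes. Stromal markers were called lower for 13 of 13, as were 13.3% of all tested genes. The 9 haematopoietic markers held, genes of another population of marrow, summed to 5.11 to 7.15 TPM in rBMSCs and 100.4 to 152.4 TPM in rEEOs. Cd14, with 72, 87 and 61 counts, made up most of the former, and Cd34, Cd79a, Spi1 and Adgre1 had no count there. Nearly all of the sum in rEEOs was Cd68 (31.8, 132.6 and 105.2 TPM) and Cd14 (67.3, 19.4 and 15.9 TPM). Of the others, Adgre1 had 18, 0 and 4 counts in rEEOs, Cd79a 8, 0 and 0, and Fcer1g 0, 1 and 4. Cd34, Spi1 and Csf1r had at most 2 counts in any rEEOs library, and Laptm5 had none. Whether rEEOs held any haematopoietic cells was not tested. Cd14 and Cd68 were the 2 genes of that list with enough counts to test, and both were called higher in rEEOs.

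Epcam was read in rEEOs and not in rBMSCs. Replicates 1, 2 and 3 of rEEOs held 17994, 16824 and 16691 counts, and each rBMSCs library held 0. In TPM, the share of a library's transcripts corrected for gene length, its level was 1113, 1060 and 1062 in rEEOs. Every rEEOs library thus held the transcript at nearly the same level, and the cell types did not overlap. Against a limit of 3 counts per library, the most that a count of 0 allows, Epcam was at least 5633-fold higher in rEEOs (adjusted p = 2.38e-05, edgeR's quasi-likelihood test). Its mean of 1079 ± 30.2 TPM (SD, n = 3) stood at percentile 99.1 of all genes in rEEOs. Among the 148 genes within 2-fold of its level there, Epcam included, no gene had a smaller SD of log2(TPM + 1). The SD of Epcam was 0.04 and the median of these genes was 0.28.

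Bcam had the same pattern with a wider spread. Its counts were 28225, 17263 and 21371 in rEEOs and 0 in each rBMSCs library, and its levels were 1074, 658 and 816 TPM in rEEOs. Replicate 1 was the highest, at 1.63 times replicate 2. Bcam was at least 7126-fold higher in rEEOs on the 3-count limit (adjusted p = 1.73e-05, edgeR's quasi-likelihood test). With 849 ± 210.1 TPM (SD, n = 3) it overlapped with Epcam, so the 2 leading antigens of rEEOs were not ordered beyond their spread.

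Prom1 was also read in rEEOs and was the least even of these 3 antigens between replicates. It had 5246, 1374 and 1576 counts in rEEOs compared to 0, 1 and 0 in rBMSCs. The levels in rEEOs were 118.7, 31.6 and 36.3 TPM, so replicate 1 held 3.76 times as much as replicate 2 and replicates 2 and 3 lay close together. Summed over the libraries and scaled to their depth, rEEOs held 8177 times as much as rBMSCs, with an exact 95% interval from 1467 to 323024 that covers counting error only. Its log2 fold change was 12.43 with a standard error of 0.84 (adjusted p = 5.01e-05, edgeR's quasi-likelihood test), and leaving out any 1 library kept it between 11.83 and 14.30. The SD of its log2(TPM + 1) in rEEOs, 1.03, was at percentile 94.9 of the 2189 genes within 2-fold of its level.

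Thy1 was the reverse of Epcam. It had 15032, 16399 and 14432 counts in rBMSCs and 0 in each rEEOs library. The levels in rBMSCs were 1219, 1225 and 1220 TPM, nearly identical between replicates. Thy1 was at least 4372-fold lower in rEEOs on the 3-count limit (adjusted p = 1.47e-05, edgeR's quasi-likelihood test). At 1221 ± 3.18 TPM (SD, n = 3) it stood at percentile 99.2 of all genes in rBMSCs, as high there as Epcam stood in rEEOs. Its SD of log2(TPM + 1) was at percentile 0.735 of the 136 genes within 2-fold of its level.

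Eng fell steeply but did not reach 0. The rBMSCs libraries had 1778, 1951 and 1607 counts and the rEEOs libraries 10, 20 and 15. In TPM these were 66.5, 70.6 and 62.1 compared to 0.35, 0.71 and 0.59. All rEEOs libraries were above the 3-count limit, and the cell types did not overlap. Its log2 fold change was -6.83 with a standard error of 0.37 (adjusted p = 2.27e-05, edgeR's quasi-likelihood test), which is 114-fold lower in rEEOs. In bulk libraries such as these, fewer cells that express a gene and less RNA per cell cannot be told apart.

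Markers of other cells that carry endoglin were read beside the low level of Eng in rEEOs. Of 14 stromal markers, 2 had more than 3 counts in every rEEOs library (Col5a1 and Vim), and Dcn, Lum, Pdgfrb and Prrx1 had none. Their summed level was 43944 to 47088 TPM in rBMSCs and 174 to 298 TPM in rEEOs, nearly all of the latter from the intermediate filament gene Vim. Without Vim the sums in rEEOs replicates 1, 2 and 3 were 2.64, 0.69 and 1.19 TPM, where Eng had 0.35, 0.71 and 0.59 TPM. Of the haematopoietic markers, Cd68 was lowest in replicate 1, as Eng was, with 31.8, 132.6 and 105.2 TPM. Cd14 was highest there, with 67.3, 19.4 and 15.9 TPM. The 6 endothelial markers summed to 0.56 to 0.78 TPM in rBMSCs and 1.01 to 2.93 TPM in rEEOs. Flt1, a VEGF receptor, made up most of the latter with 181, 104 and 71 counts. The endothelial adhesion genes Pecam1 and Cdh5 had 3, 0 and 0 and 1, 0 and 0 counts there. Smooth muscle markers were called lower in rEEOs for 6 of 6 genes, with 3.48 to 12.2 TPM left in rEEOs. Smtn made up most of this, at 11.1, 2.62 and 3.96 TPM. Acta2 had 1.08, 0.79 and 0.65 TPM in rEEOs, and Des and Actg2 had no count there. The part of any such cells in the Eng level was not tested.

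Nt5e was low in both cell types. It had 31, 20 and 32 counts in rBMSCs and 4, 1 and 14 in rEEOs, or 1.14, 0.69 and 1.23 TPM compared to 0.12, 0.03 and 0.44 TPM. The lowest rBMSCs library was above the highest rEEOs library, but replicate 3 of rEEOs held most of the counts of that cell type. Its log2 fold change was -2.08 with a standard error of 0.76 (adjusted p = 0.0507, edgeR's quasi-likelihood test), which misses the threshold of 0.05. Without rEEOs replicate 3 it was -3.51 (adjusted p = 0.00526, same test), and leaving out any other library gave an adjusted p of up to 0.125. The DESeq2 Wald test gave an adjusted p of 0.035. Of the 3 antigens used to define mesenchymal stromal cells, Nt5e was thus the exception in rBMSCs, at percentile 33.7 of all genes where Thy1 stood at 99.2 and Eng at 87.1.

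**Figure D1:**
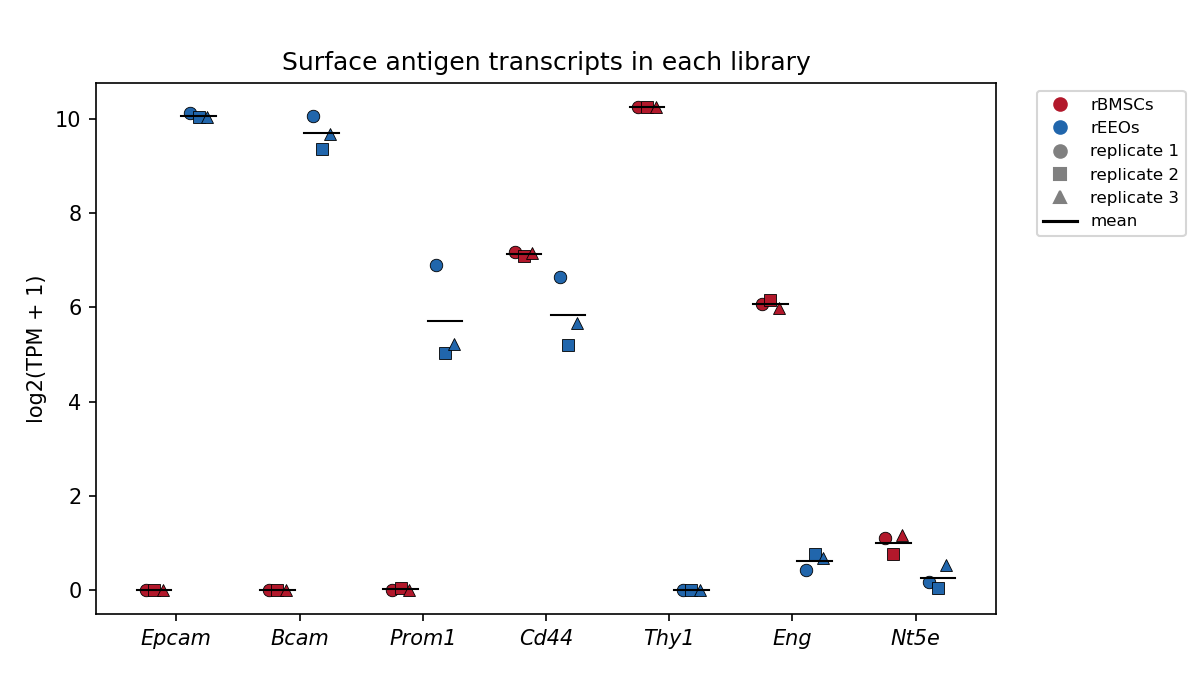
Level of each surface antigen transcript as log2(TPM + 1) in every library, with rBMSCs in red, rEEOs in blue, 1 symbol for each replicate and a line at the mean of 3 libraries. Epcam, Bcam and Prom1 are at or near 0 in rBMSCs and Thy1 is at 0 in rEEOs, whereas Cd44 is high in both, Eng keeps 0.35 to 0.71 TPM in rEEOs, and Nt5e is low in both.

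Cd44 was abundant in both cell types. It had 5940, 5939 and 5636 counts in rBMSCs and 5332, 1941 and 2822 in rEEOs. In TPM these were 143.7, 135.6 and 142.6 compared to 98.6, 35.7 and 50.2. The rBMSCs libraries were alike, those of rEEOs spread 2.76-fold from replicate 2 to replicate 1, and the cell types did not overlap. Its log2 fold change was -0.86 with a standard error of 0.24 (adjusted p = 0.0202, edgeR's quasi-likelihood test), a 1.81-fold lower level in rEEOs that is below the fold required of a call. The adjusted p was 0.0614, 0.0589 and 0.0605 without rBMSCs replicate 1, 2 or 3 and 0.0642 without rEEOs replicate 3, and it was 0.000877 without rEEOs replicate 1.

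The size of the Cd44 difference depended on the scaling. It was -0.46 (adjusted p = 0.168) when edgeR used library totals alone and -1.31 (adjusted p = 0.0187) with limma on log2(TPM + 1). These scalings also shifted the median over all tested genes, which was 0.08 in the main test, 0.46 with library totals and -0.22 with limma. Relative to that median, Cd44 was at -0.93, -0.92 and -1.09 on the log2 scale. Eng relative to the median was at -6.91, -6.92 and -5.23, and the level added to each TPM before the log weighs on its last value.

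With at most 3 counts in all 3 libraries taken as off and at least 10 in all 3 as on, Epcam, Bcam and Prom1 were on in rEEOs and off in rBMSCs, and Thy1 was on in rBMSCs and off in rEEOs. Over all 10607 tested genes, 7.66% were of the first kind and 4.29% of the second. Cd44 and Eng, with more than 3 counts in all 6 libraries, were graded, as were 83.1% of all tested genes. Nt5e was of mixed kind, since rEEOs libraries fell on both sides of the limit, as were 4.93%. These classes rest on few counts for Prom1, Eng and Nt5e. When off meant no count at all, Prom1 became mixed because of its 1 count and Nt5e became graded. When off meant at most 10 and on at least 30 counts, Eng became mixed. Nt5e was also graded without rEEOs replicate 2.

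Called genes are those with an adjusted p below 0.05 and an absolute log2 fold change above 2. Epcam, Bcam and Prom1 were called higher in rEEOs (16.3% of tested genes were) and Thy1 and Eng were called lower (13.3%). With Cd44, 6 of the 7 had an adjusted p below 0.05 in edgeR, as did 63.4% of tested genes. For none of the 7 genes did the TPM values of the 2 cell types overlap, which held for 69.6% of all tested genes. All 7 genes passed the filter of 10 counts in 3 libraries, but only Cd44 and Eng reached 10 counts in every library of both cell types. Epcam, Bcam, Prom1, Thy1 and Nt5e passed it through the cell type in which they were high, so their number is no support for a difference. For a gene taken alone, the smallest p that an exact permutation test of these 6 libraries allows is 0.1.

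**Figure D2:**
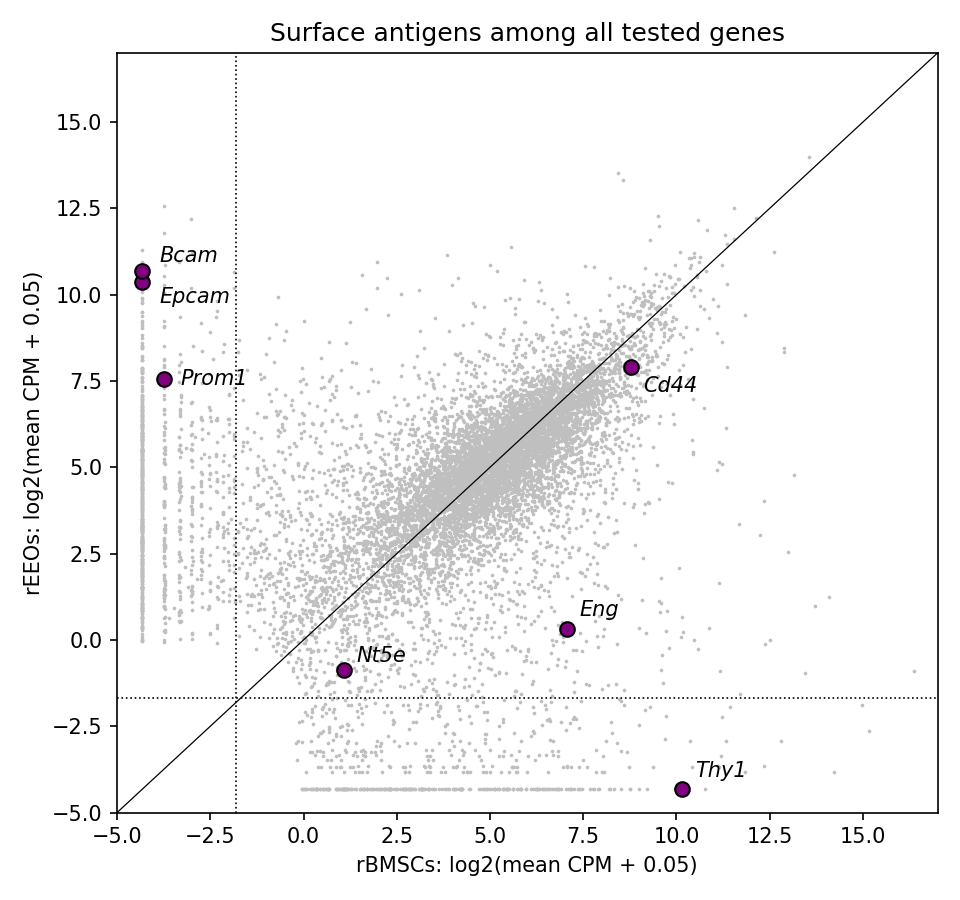
Mean scaled counts (CPM, counts relative to the library total, adjusted by the trimmed mean of M values) in rBMSCs on the horizontal axis and in rEEOs on the vertical axis, both as log2(mean CPM + 0.05), for 10607 tested genes in grey and the surface antigens in purple. Dotted lines mark the level of 3 counts per library and the diagonal marks equal levels: Epcam, Bcam and Prom1 lie left of the vertical dotted line, Thy1 lies below the horizontal one, Eng and Nt5e lie above it, and Cd44 lies near the diagonal.

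In rBMSCs the order by TPM was Thy1, Cd44, Eng and Nt5e, and no neighbours overlapped. The steps were 8.68-fold from Thy1 to Cd44, 2.12-fold from Cd44 to Eng and 65.1-fold from Eng to Nt5e. Prom1, Bcam and Epcam lay at or next to 0 and overlapped. In rEEOs the order was Epcam and Bcam, which overlapped, then Prom1 and Cd44, which overlapped at means of 62.2 ± 49.0 and 61.5 ± 32.9 TPM (SD, n = 3), then Eng and Nt5e, which overlapped, and Thy1 at 0. From Bcam to Prom1 the step was 13.7-fold, and from Cd44 to Eng it was 112-fold. Both cell types thus had an antigen in the top percent of their genes that the other lacked. Cd44 came next after Thy1 in rBMSCs and shared the place after Epcam and Bcam with Prom1 in rEEOs. Replicate 1 of rEEOs was the highest for Prom1, Cd44, Bcam and Epcam and the lowest for Eng, at 3.76, 2.76, 1.63, 1.05 and 0.493 times replicate 2.

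The genes most like each antigen were found by the root mean square difference of log2(TPM + 1) over the 6 libraries, which fall in 2 groups, so likeness is mostly that of the levels in the 2 cell types. For Epcam these were Krt18 (0.14), a keratin of simple epithelia, Plet1 and Cd24. For Bcam they were Gpx2, LOC691970 and Krt18, at 0.27 to 0.29. Prom1 was closest to Rbm47 (0.09), Fcgbp and Chdh, which shared its high replicate: Rbm47 had 123.4, 27.8 and 33.9 TPM in rEEOs. Cd44 was closest to Rad21 (0.06), a cohesin subunit, with 148.7, 138.7 and 152.2 TPM in rBMSCs and 95.2, 36.0 and 47.8 in rEEOs, followed by Sptan1 and Cenpb. Among the rEEOs libraries all 3 were highest in replicate 1, as Cd44 was. Thy1 was closest to the collagen genes Col6a2 (0.11) and Col5a2 and to Fbln2, all with at most 0.07 TPM in rEEOs. Eng was closest to Cmklr1, Kctd15 and Numbl (0.27 to 0.29), and Nt5e to Dnaaf3, Pcdhb5 and Pcdhga3 (0.12 to 0.16).

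The length of the Cd44 transcripts behind the deposited values also differed between the cell types. RSEM divides a gene's count by an effective length that follows the isoforms it assigns, so the ratio of count to FPKM (reads per length of transcript and depth of library) moves when longer or shorter isoforms take more of the reads. The log2 of this ratio for Cd44, relative to the median gene of each library, was 1.06, 1.05 and 1.05 in rBMSCs and 1.20, 1.20 and 1.25 in rEEOs. Every rEEOs library was above every rBMSCs library. The effective length was 11.8% longer in rEEOs, a log2 difference of 0.16 (standard error 0.01, adjusted p = 0.0117, limma over the 3117 genes with at least 300 counts and 10 FPKM in all libraries). Of those genes, 1.32% had an adjusted p below 0.05 in this comparison and 3.40% had a difference at least as large. This comparison was chosen after the data were seen, Cd44 was the only antigen with a value in both cell types, and which exons are longer was not analysed here.

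Esrp1 and Esrp2, splicing regulators known to promote inclusion of Cd44 variable exons, were read beside it. Esrp1 had 0 counts in each rBMSCs library and 4245, 2872 and 2410 in rEEOs, at least 1011-fold higher (adjusted p = 2.38e-05, edgeR's quasi-likelihood test). Esrp2 had 4, 5 and 7 counts compared to 2829, 2398 and 2261, a log2 fold change of 8.85 (adjusted p = 4.59e-06, same test). Their part in the Cd44 length was not tested.

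**Figure D3:**
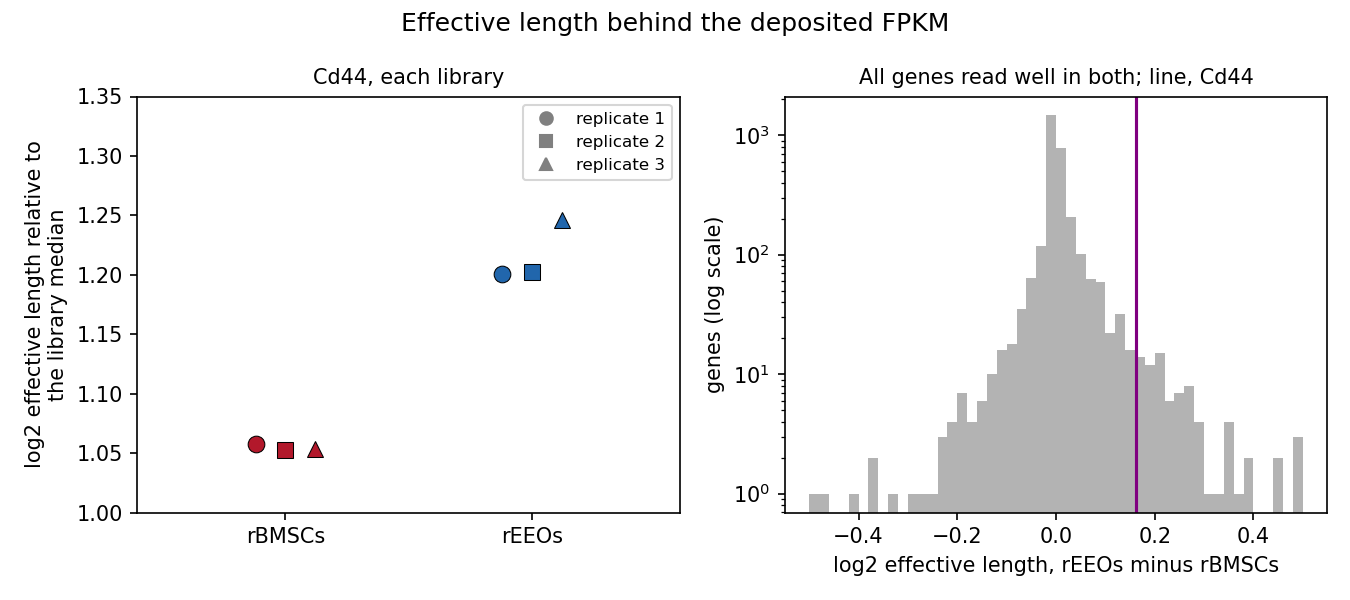
Left, log2 effective length of Cd44 (count over FPKM, relative to the library median) in each library, on an axis that starts at 1; right, the number of genes (log scale) by their log2 difference in effective length between rEEOs and rBMSCs, for 3117 genes, with values beyond 0.5 in either direction placed in the end bins. The 3 rEEOs libraries sit at 1.20 to 1.25 and the rBMSCs libraries at 1.05 to 1.06, and the purple line marks the Cd44 difference of 0.16, which lies to the right of most genes.

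Genes that act with each antigen were read from lists of known partners. Over all lists, 165 of 205 genes were held. Of the 151 tested, rEEOs were called higher for 46 and lower for 40, compared to 29.7% of all tested genes called in either direction. The median log2 fold change was 0.23 over these genes and 0.08 over all tested genes. Lama5, Itga6, Has2, Tgfbr2, Entpd1 and Enpp1, direct partners of these antigens, were not analysed here. Some genes stand in more than 1 list.

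Around EpCAM, junction partners and the protease matriptase, which cuts it, were higher in rEEOs. The ADAM protease, beta-secretase and gamma-secretase genes of its cleavage were called lower or not called. Of 20 tested genes, 10 were called higher and 2 lower, with a median log2 fold change of 4.77. Claudin-7 (Cldn7), which binds EpCAM, had 4169, 3821 and 3860 counts in rEEOs and 0 in rBMSCs, at least 1295-fold higher. The membrane protease matriptase (St14), which cuts EpCAM, rose from 8, 10 and 9 to 9319, 4454 and 6338 counts (log2 fold change 9.49, adjusted p = 4.59e-06, edgeR's quasi-likelihood test). Its inhibitor Spint1 rose from 0, 1 and 0 to 7241, 6652 and 7495 counts, and the related inhibitor Spint2 from 53 to 68 up to 15462 to 20114. Tspan8, a tetraspanin that associates with EpCAM, rose from 0, 3 and 0 to 22148, 14498 and 11158 counts.

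None of the protease genes Adam10 and Adam17 and the gamma-secretase subunit genes Ncstn, Aph1a and Psenen was called. Adam17 stood at -0.91 on the log2 scale (adjusted p = 0.00201, edgeR). The subunit genes passed the p threshold the other way with folds short of a call, Aph1a at 0.52 (adjusted p = 0.00706), Ncstn at 0.50 (adjusted p = 0.0172) and Psenen with 99.1 TPM in rBMSCs and 188 in rEEOs (adjusted p = 0.0101, all edgeR). Ctnnb1 (beta-catenin), which binds the freed tail of EpCAM, had 307 TPM in rBMSCs and 264 in rEEOs, a difference of 0.07 on the log2 scale (adjusted p = 0.728, edgeR's quasi-likelihood test), and of -0.27 with limma on TPM and -0.011 without rEEOs replicate 2. The genes called lower were Fhl2, the other partner of the tail, at -5.28, and Bace1, a beta-secretase, at -2.17. They were named after their values were seen, and 1 gene was called lower without rEEOs replicate 3.

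Around Bcam, laminin chains and laminin receptors were called in both directions. Of 9 tested genes, 3 were called higher and 4 lower, with a median log2 fold change of -1.53. Lamb3, a chain of epithelial laminin, rose from 45, 58 and 51 counts in rBMSCs to 21978, 11964 and 14068 in rEEOs (log2 fold change 8.25, adjusted p = 4.59e-06, edgeR's quasi-likelihood test). The laminin-binding integrin Itga3 rose from 384, 369 and 395 to 19097, 5900 and 9119 counts. Itgb1, its common beta chain, fell from 1318 to 215 TPM (log2 fold change -2.42, adjusted p = 0.000167, same test). The chain Lamb2 had 204 TPM in rBMSCs and 57.9 in rEEOs and was not called, at -1.53. The other genes called, named after their values were seen, were Itgb4 (9.40), higher, and Lama2 (-7.58), Lama4 (-5.44) and Itga7 (-2.47), lower on the log2 scale.

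Genes of apical protrusions, where prominin-1 sits, were called higher in rEEOs for 6 of the 12 held. Of the 9 tested, these 6 were higher and 1 was called lower, with a median log2 fold change of 4.52. Prom2, the relative of Prom1, had 220, 631 and 124 counts in rEEOs and 0 in rBMSCs, at least 113-fold higher (adjusted p = 0.00418, edgeR's quasi-likelihood test). Prom2 was highest in replicate 2, where Prom1 was lowest. Ezrin (Ezr), which ties apical membrane proteins and CD44 to actin, rose from 448, 494 and 502 to 32827, 21001 and 14183 counts. Its scaffold Slc9a3r1 rose from 369, 422 and 338 to 7584, 2468 and 2190 counts. Ttyh3, a membrane protein of the tweety family, was not called: it stood at -0.23 on the log2 scale (adjusted p = 0.435, same test) and at 0.17 with library totals alone. The gene called lower, Ttyh2 (-3.76), was named after its values were seen. The untested genes, named likewise, were near 0 in rEEOs: Vil1 had 7, 0 and 3 counts, Myo1a 0, 5 and 0, and Cdhr5 0, 1 and 0, compared to 11, 12 and 8 for Cdhr5 in rBMSCs.

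In the hyaluronan and CD44 list, 5 of 14 tested genes were called higher and 3 lower, with a median log2 fold change of 1.01. Osteopontin (Spp1), a secreted ligand of CD44, rose from 4645, 4802 and 4424 counts to 61421, 186073 and 189329, and its lowest rEEOs library was replicate 1, where Cd44 was highest. Tnfaip6, which cross-links hyaluronan, rose from 51, 54 and 50 to 33906, 24286 and 21537 counts (log2 fold change 9.00, adjusted p = 4.02e-06, edgeR's quasi-likelihood test). Mmp14, a membrane metalloprotease that sheds CD44, fell from 307 to 62.3 TPM (log2 fold change -2.13, adjusted p = 0.000438, same test), and it was -1.73 with library totals alone and -1.94 without rEEOs replicate 2, short of a call. Besides Esrp1 and Esrp2, Hyal1 (2.51) was called higher, and Vcan (-13.60) and Hmmr (-2.30) were called lower, all named after their values were seen. The number called lower was 1 without rEEOs replicate 2.

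Receptors that Thy-1 binds on other cells were called in both directions, among the integrins as well as over the list. Of 9 tested genes, 2 were called higher and 4 lower, with a median log2 fold change of -1.42. Integrin beta-3 (Itgb3), the partner chain of alpha-v in the best known Thy-1 receptor, had 86, 83 and 86 counts in rBMSCs and 0 in rEEOs, at least 24.3-fold lower in rEEOs. Itga5 fell from 106 to 12.4 TPM, and syndecan-2 (Sdc2) fell from 778 to 22.0 TPM (log2 fold change -4.99, adjusted p = 0.000707, edgeR's quasi-likelihood test). Syndecan-4 (Sdc4), the co-receptor of that integrin for Thy-1, had 68.7 TPM in rBMSCs and 222 in rEEOs, and its log2 fold change of 1.95 (adjusted p = 0.00148, same test) lay just under the fold required. The adhesion receptor Adgre5 (CD97) rose from 11.8 to 46.1 TPM (log2 fold change 2.14, same test), but it was 1.93 without rEEOs replicate 1. The other genes called were Itgb2, higher, and Itgax, lower, each at 0 in the other cell type and named after their values were seen. Without rEEOs replicate 2, 4 genes were called higher.

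Endoglin stood among genes of the same pathway of which more were lower than higher in rEEOs. Of 21 tested genes, 9 were called lower and 2 higher, with a median log2 fold change of -1.60. ALK1 (Acvrl1), the type I receptor that works with endoglin, fell from 1753, 1974 and 1817 counts to 96, 44 and 89 (log2 fold change -4.61, adjusted p = 2.69e-05, edgeR's quasi-likelihood test). Betaglycan (Tgfbr3), the relative of endoglin, fell from 269, 198 and 210 to 36, 0 and 10 counts (log2 fold change -4.00, adjusted p = 0.00821, same test). The ligand gene Tgfb3 fell from 258.7 to 0.557 TPM. Smad4, the shared signal carrier, was not called, at -0.61. The targets Id1 and Id3, both inhibitors of helix-loop-helix factors, moved in opposite directions. Id1 rose from 91, 109 and 110 to 762, 1198 and 1451 counts (log2 fold change 3.54), and Id3 fell from 1452, 1576 and 1404 to 50, 24 and 75 (log2 fold change -4.88, same test). Acvr2b (2.42), named after its values were seen, was the other gene called higher. The rEEOs medium held noggin, which blocks BMP ligands, and the TGF-beta receptor kinase inhibitor, and the part of the medium in these levels was not tested.

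Around Nt5e, enzymes that break down extracellular ATP and the receptors and carriers of adenosine differed between the cell types gene by gene. Of 17 tested genes, 7 were called higher and 5 lower in rEEOs, with a median log2 fold change of 0.64. Entpd2, which removes phosphate from ATP upstream of CD73, had 2352, 1636 and 2157 counts in rEEOs and 0 in rBMSCs, at least 663-fold higher. The adenosine receptor Adora2b fell from 60, 64 and 61 to 14, 13 and 12 counts (log2 fold change -2.22, adjusted p = 0.000508, edgeR's quasi-likelihood test), and with library totals alone it was -1.84, short of a call. Adora1, another adenosine receptor, had 268, 266 and 139 counts in rEEOs and 0 in rBMSCs, at least 72.9-fold higher. Adenosine deaminase (Ada) fell from 301, 327 and 269 to 70, 25 and 37 counts (log2 fold change -2.81, adjusted p = 0.000246, same test). Adenosine kinase (Adk) and the phosphorylase Pnp were not called, at 0.64 and 0.72. The other genes called higher were Entpd6 (3.12), Enpp3 (5.67) and Dpp4 (7.34), and Entpd8 and Slc28a3, which had no count in rBMSCs and were at least 11.6-fold and 68.2-fold higher. Adora1 and these genes were named after their values were seen, as were the other genes called lower, Slc29a1 (-6.60), Bst1 (-4.57) and Cd38 (-3.79).

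The machinery that makes and attaches the GPI anchor of Thy-1 and CD73 was read in both cell types. Of 24 genes held, 23 had more than 3 counts in every library of both. Pigl (2.26) and Pgap2 (2.15) were called higher in rEEOs and none was called lower among 23 tested genes, with a median log2 fold change of 0.41. Without rBMSCs replicate 1 or without rEEOs replicate 2, 1 gene was called. Pigk, part of the enzyme that transfers the anchor, had 135.6 TPM in rBMSCs and 49.5 in rEEOs and was not called, at -1.21. Pigt, of the same enzyme, had 105 and 117 TPM, and Pigx, of the first mannose transfer, had 72.0 and 90.4. By edgeR without the fold threshold, 9 of the 23 genes had an adjusted p below 0.05 and were higher in rEEOs and 3 were lower.

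Other surface antigens of each cell type were read in the same way. Of 19 tested mesenchymal antigens, 11 were called lower in rEEOs and 2 higher (Ly6e and Susd2, named after their values were seen), with a median log2 fold change of -2.55. Among these, the tetraspanins Cd63 and Cd81 were not called and stayed high in both: Cd63 had 1700 TPM in rBMSCs and 1059 in rEEOs, and Cd81 had 399 and 276. The log2 fold change of Cd81 was -0.24 and became 0.13 with library totals alone. Of 22 tested epithelial antigens, 17 were called higher and 2 lower, with a median log2 fold change of 10.66, or 9.12 when the 6 genes at 0 in rBMSCs were set to their lower bounds. The 2 called lower were P-cadherin (Cdh3), which fell from 56.2 to 5.14 TPM (log2 fold change -3.36, adjusted p = 0.00428, edgeR's quasi-likelihood test), and Fut4, named after its values were seen, at -2.06. Without rBMSCs replicate 1, rEEOs replicate 2 or rEEOs replicate 3, 1 gene was called lower. The tetraspanin Cd9, often used as a surface marker of epithelium, was high in both, with 196 TPM in rBMSCs and 248 in rEEOs (log2 fold change 0.65, adjusted p = 0.0482, same test).

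**Figure D4:**
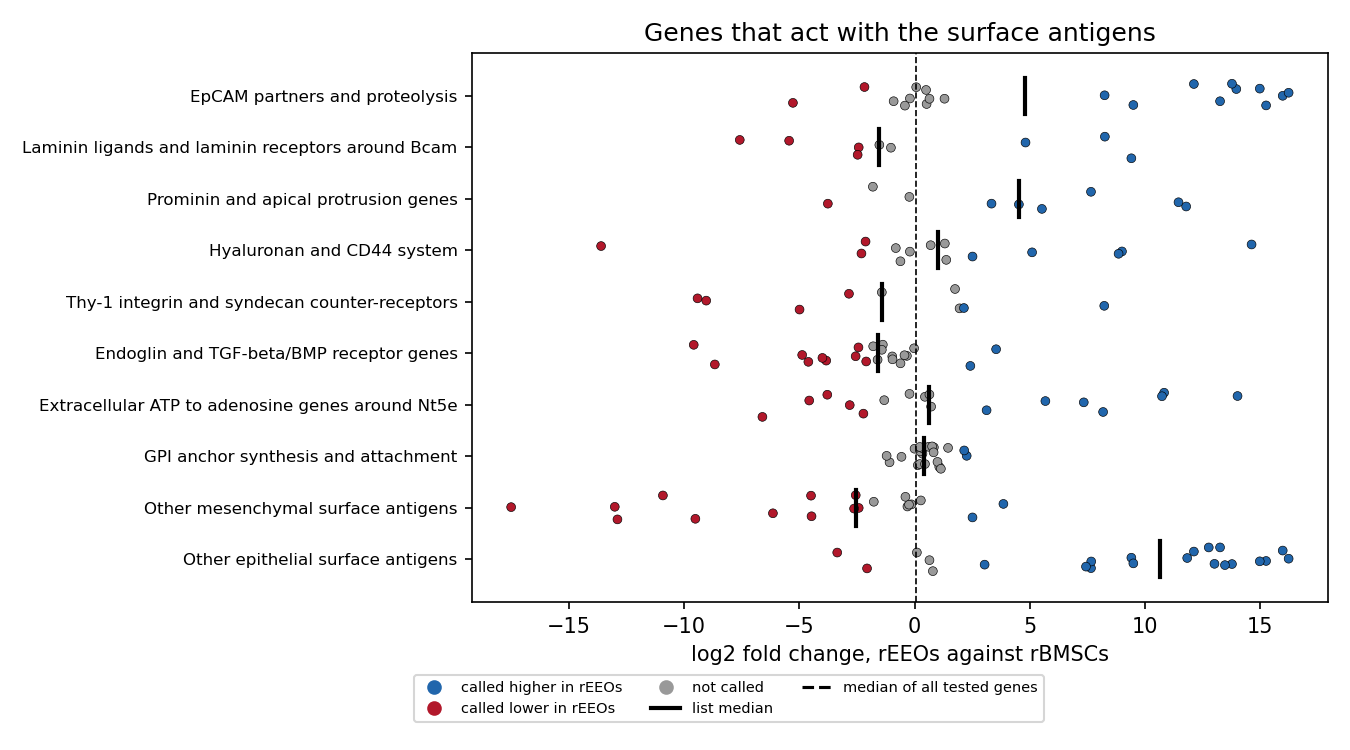
Log2 fold change of rEEOs against rBMSCs for each tested gene (point) of the lists around the surface antigens, in blue where called higher in rEEOs, red where called lower and grey where not called, with the list median as a black bar and the median of all tested genes as a dashed line. Values of genes with no count in a cell type are fitted and depend on the constant added to counts; 17 of 22 other epithelial antigens lie far to the right, 9 of 21 genes of the endoglin list are called lower, and the GPI anchor genes lie close to the dashed line.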

How the data were processed

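Total RNA of rEEOs (n = 3) and rBMSCs (n = 3) was enriched for poly(A) RNA and sequenced as single reads on a BGISEQ instrument. Per the study's methods and the submitters' processing notes, the authors trimmed reads with Trim Galore, aligned them with Bowtie2 (version 2.2.5) to the rat genome (Rnor_6.0) and quantified genes with RSEM. The authors deposited a gene table with an expected count (an estimated count that need not be whole), an FPKM and a TPM value per library. The deposited TPM values of the 13728 genes used here summed to 81.3% to 82.7% of the full TPM scale per library. The last row of the table ends after 23 of 27 fields. Strand use in counting was not given in the sources used here, so reads of overlapping genes cannot be told apart.

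After rounding of expected counts, 10607 genes with 10 or more counts in 3 or more of 6 libraries were tested, and rEEOs were compared with rBMSCs by edgeR's quasi-likelihood test (version 4.0.16, R 4.3.3, TMM factors 0.866 to 0.885 in rBMSCs and 1.10 to 1.20 in rEEOs). P-values were adjusted by Benjamini-Hochberg over all tested genes. Standard errors printed with edgeR fold changes are the absolute log2 fold change over the square root of the test's F statistic. They were not fitted directly. Genes were called at an adjusted p below 0.05 and an absolute log2 fold change above 2, the thresholds of the study. Limma (3.58.1) tested log2(TPM + 1) and effective length, and DESeq2 (1.42.0) was an alternative. A count of 0 was taken to allow 3 counts per library, 0.181 to 0.262 CPM after scaling. Exact 95% intervals and these limits cover counting error only. On simulated data for this comparison (10607 genes), edgeR recovered 11 of 67 genes changed by a log2 of 1. It recovered 49 of 67 changed by 2 and 61 of 66 changed by 3, with 6 false calls. Recovered here means an adjusted p below 0.05, without the fold threshold of a call. Only these genes were changed there, whereas 63.4% of tested genes had an adjusted p below 0.05 in the data. These shares are therefore not the power in the data, which was not tested. Replicates of a cell type differed by more than sampling noise.

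The 7 genes, the partner lists and the tests were chosen with earlier results of these data known. Besides the 7 genes, the rule named their direct partners, up to 2 tested genes of each list with the highest mean TPM in each cell type, and the 3 genes most like each antigen; some named genes are not reported here. Start regions came from RefSeq on GRCr8, where 6 of the 7 genes had an entry, and Thy1 is not shown. No coordinates of the authors' build are given.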

Additional observations from a re-analysis of the deposited data

How the results depend on the processing

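Alternatives were library totals without further scaling, DESeq2's Wald test and its size factors, 2 other count filters, limma on log2(TPM + 1) and log2(TPM + 0.1), a lower fold threshold, the replicate number as a block, and each library left out in turn. Epcam, Bcam, Prom1, Thy1 and Eng kept their direction and their call under each alternative that was run, and the direction of Cd44 and Nt5e also held. With library totals alone the median log2 fold change of all tested genes moved from 0.08 to 0.46, and with limma on log2(TPM + 1) to -0.22.

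Nt5e passed both thresholds at -2.09 with DESeq2, -2.40 with the replicate block (adjusted p = 0.0292, edgeR) and -3.51 without rEEOs replicate 3, in a leave-one-out range from -3.51 to -1.59; it could not be fitted with limma or the filter of 50 counts because it fell under those filters. Leave-one-out values ran from 17.07 to 17.16 for Epcam, 17.36 to 17.56 for Bcam, 11.83 to 14.30 for Prom1, -1.09 to -0.63 for Cd44, -16.93 to -16.82 for Thy1 and -7.18 to -6.45 for Eng; with no count in a cell type the fitted value depends on the constant added. Genes called higher numbered 1733, 1121 with limma on log2(TPM + 1) and 2663 above an absolute log2 fold change of 1; genes called lower numbered 1412 and 2287 above 1. The antigens of graded kind numbered 1 when on meant at least 30 counts. Reversed values were 0.13 for Cd81 and 0.17 for Ttyh3 with library totals alone, and for Ctnnb1 -0.27 with limma on log2(TPM + 1) and -0.27 on log2(TPM + 0.1) and -0.011 to 0.19 with libraries left out (-0.011 without rEEOs replicate 2). For the 56 genes that the rule named from the lists, besides the 7 antigens, 817 of 835 values kept direction and side of the threshold. Of the rest, 7 fell short of a call and 6 gained it. Other genes named in the text are not in this count. List counts that moved by over 1.5 times under scalings or filters were of at most 5 genes.

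Whether equal replicate numbers pair the libraries was not settled. Deviations from the cell type means correlated at 0.23, 0.23 and -0.18 for numbers 1, 2 and 3. Unlike numbers reached 0.25, for rBMSCs replicate 2 with rEEOs replicate 3. Deviations from a mean of 3 libraries also depend on each other, so these values cannot decide it. Under the replicate block 1710 genes were called higher and 1521 lower, and Nt5e was the only one of the 7 whose call changed. Nt5e had 19 counts in all of rEEOs, 14 of them in replicate 3.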
